A study of Mus musculus with 6 samples.

Results

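Expression of the 4 chains of the interferon receptors and of interferon beta was examined in mouse macrophages of wild-type genotype derived from bone marrow, cells grown in culture from marrow progenitors. The members were the 5 rows of the deposited gene table with the symbols Ifnar1, Ifnar2, Ifngr1, Ifngr2 and Ifnb1, out of 25711 rows in all. RNA sequencing libraries came from 3 control samples at 24 h and 3 samples exposed for 24 h to CCL7, a chemokine, at 500 ng/ml. Both groups are labelled WT, and the only difference the labels give is the CCL7. The series asks how CCL7 relates to macrophage polarization in rheumatoid arthritis. The extraction text covers macrophages and primary chondrocytes, and the chondrocyte markers Col2a1 and Acan had 0 counts in the controls and 4 each with CCL7. No label names the culture or the animal behind a library. The p-values therefore refer to spread among these libraries alone, and that spread may be technical.

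Type I interferons, such as interferon beta and the interferon alphas, bind a receptor made of IFNAR2, the chain with high affinity for the ligand, and IFNAR1, the chain with low affinity. Interferon gamma, the type II interferon, binds IFNGR1, and IFNGR2 joins the complex as the signalling chain. The chains have no enzyme activity and rely on bound Janus kinases, TYK2 on IFNAR1, JAK1 on IFNAR2 and IFNGR1, and JAK2 on IFNGR2. These phosphorylate transcription factors of the STAT family, which switch on antiviral, antigen-presentation and inflammatory genes. Macrophages respond to both types and are themselves a source of interferon beta when Toll-like receptors or nucleic acid sensors are engaged.

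Ifnb1 is known for a compact inducible enhancer that binds interferon regulatory factors and NF-kB, and its promoter is shown beside those of the receptor chains. A link between these sequences and the changes below was not tested. The sequences are from RefSeq (GRCm38.p6), where all 5 members were matched by symbol, and run 5′ to 3′ on the strand of the gene. For Ifnb1 the stretch covers positions -220 to -71 from the RefSeq start (chr4:88522865-88523014, minus strand), and for the receptors positions -250 to -1. Capitals mark matches, on either strand, to AANNGAAA (the core bound by interferon regulatory factors), TTCNNNGAA (the gamma-activated site), the kappaB site (GGGA and TTCC separated by any pair of bases), GGGCGG (the GC box) and TATAAA (the TATA box).
Ifnb1: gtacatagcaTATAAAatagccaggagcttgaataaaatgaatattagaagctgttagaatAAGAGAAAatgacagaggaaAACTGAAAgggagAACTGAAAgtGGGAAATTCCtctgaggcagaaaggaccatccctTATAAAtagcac
Ifnar1 (chr16:91484965-91485214, plus strand): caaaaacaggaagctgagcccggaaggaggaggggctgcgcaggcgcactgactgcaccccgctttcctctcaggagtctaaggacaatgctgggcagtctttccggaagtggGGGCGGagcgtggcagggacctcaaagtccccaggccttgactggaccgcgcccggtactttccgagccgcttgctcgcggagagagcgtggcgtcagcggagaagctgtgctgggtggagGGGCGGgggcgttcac
Ifnar2 (chr16:91372533-91372782, plus strand): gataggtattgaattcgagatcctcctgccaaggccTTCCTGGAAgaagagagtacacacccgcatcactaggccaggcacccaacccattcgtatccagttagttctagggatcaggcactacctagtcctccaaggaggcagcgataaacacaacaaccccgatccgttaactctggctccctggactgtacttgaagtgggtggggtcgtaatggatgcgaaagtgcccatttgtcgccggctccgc
Ifngr1 (chr10:19591699-19591948, plus strand): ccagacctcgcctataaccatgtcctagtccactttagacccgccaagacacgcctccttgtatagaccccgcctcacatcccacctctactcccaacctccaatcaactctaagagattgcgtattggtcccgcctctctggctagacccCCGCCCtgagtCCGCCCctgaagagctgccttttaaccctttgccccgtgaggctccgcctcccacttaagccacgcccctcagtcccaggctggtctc
Ifngr2 (chr16:91546809-91547058, plus strand): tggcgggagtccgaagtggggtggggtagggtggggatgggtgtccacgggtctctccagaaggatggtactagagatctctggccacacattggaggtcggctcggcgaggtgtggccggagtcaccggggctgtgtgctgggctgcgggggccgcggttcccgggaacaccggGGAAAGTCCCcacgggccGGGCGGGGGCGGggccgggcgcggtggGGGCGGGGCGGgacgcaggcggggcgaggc
In the 250 bases before its start, Ifnb1 held 3 matches to the interferon regulatory factor core, 1 kappaB match and 2 TATA matches, and no GC box. None of the 4 receptor windows held the interferon regulatory factor core or a TATA box. Ifngr2 held 1 kappaB match on the minus strand and 4 GC boxes (neighbouring GC boxes overlap or touch), Ifnar1 and Ifngr1 held 2 GC boxes each, and Ifnar2 held 1 gamma-activated site. Of 32851 promoters in the RefSeq table, 21.3% held the interferon regulatory factor core, 7.02% the gamma-activated site, 1.21% the kappaB site, 32.7% the GC box and 12.4% the TATA box in the same window. The GC content of the windows was 39.6% for Ifnb1, 54.0% for Ifnar2, 59.2% for Ifngr1, 65.6% for Ifnar1 and 74.0% for Ifngr2, against a median of 52.4% over all promoters.

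The control libraries held 34860523 to 44561204 counts and the CCL7 libraries 43289351 to 51161400. The 10 most abundant genes took 8.89% to 9.31% of counts in the controls and 11.2% to 11.8% with CCL7. The TMM factors, which scale libraries on the premise that most genes do not change, were 1.09 in each control and 0.913 to 0.925 with CCL7. With that scaling 69.1% of tested genes were called changed, so the premise is uncertain here. The call of Ifnar2 and the direction of Ifngr1 depend on the scaling. All 8 macrophage markers were tested, with a summed level of 10828 to 11365 FPKM in the controls and 20077 to 21436 FPKM with CCL7. Most of that sum was Lyz2 (8793 and 17453 FPKM); Adgre1 went from 338 to 1516 FPKM, Cd68 fell from 936 to 675 FPKM, and of the 8, 5 were higher, 1 was lower and 2 (Mertk and Fcgr3) did not pass. Of 7 markers of plasmacytoid dendritic cells, which are known as strong producers of type I interferon, 6 had a row. Their sum of 125.5 to 126 and 617 to 729 FPKM was mostly Bst2, which macrophages also express, while Siglech totalled 4 counts over the controls and 0 over the CCL7 libraries. The others went both ways. Cox6a2 was called higher (118 and 279 counts) and Tcf4 lower (-0.87 ± 0.13), while Ccr9 (20 and 73 counts) and Klk1 (2 and 1) were too low to test. Of 10 T and NK cell markers, cells known to make interferon gamma, 4 had a row, summing to 1.63 to 1.94 and 0.912 to 1.07 FPKM, mostly Cd4, with 2 and 0 counts of Cd3d. The summed level of B cell markers was at most 0.337 FPKM in any library, that of conventional dendritic cell markers at most 0.504, and that of stromal and chondrocyte markers at most 0.207. Neutrophil markers, mostly Camp, summed to 0.0571 to 0.204 FPKM in the controls and 1.22 to 1.91 with CCL7. The part of these cells in the results below was not tested, and in bulk RNA fewer cells of a type and less RNA per cell cannot be told apart.

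The 2 chains of the type I receptor were both higher with CCL7, the low-affinity chain by more. Ifnar1 (ENSMUSG00000022967, chromosome 16, 91485238 to 91507441, plus strand, protein-coding, GENCODE M21 on GRCm38) was at 120, 112 and 114 CPM (counts scaled to library size by TMM) in control replicates 1 to 3 and at 212, 208 and 223 CPM in CCL7 replicates 1 to 3. Every CCL7 library lay above every control library, and CCL7 replicate 2 was the lowest of its group. Groups without overlap, in either direction, were seen at 73.7% of tested genes. The mean went from 115 ± 4.10 to 214 ± 7.73 CPM (SD, n = 3 per group here and below), a log2 change of 0.89 ± 0.04 (SE) or 1.85-fold, with a 95% interval of 0.78 to 1.01 on the log2 scale (edgeR quasi-likelihood test, Benjamini-Hochberg adjusted p = 1.02e-07). Across the 11143 genes tested, 69.1% changed in either direction, 33.9% being higher and 35.2% lower, and with the deposited totals 27.9% of the called genes were higher, against 49.1% with TMM. In size, the change of Ifnar1 exceeded that of 81.0% of tested genes.

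Ifnar2 (ENSMUSG00000022971, chromosome 16, 91372783 to 91405589, plus strand, protein-coding) was at 91.1, 92.2 and 88.9 CPM in the controls and at 111, 116 and 117 CPM with CCL7. The groups did not overlap, as at 73.7% of tested genes. The log2 change was 0.33 ± 0.03 (edgeR adjusted p = 1.20e-04, 95% interval 0.23 to 0.44), a rise of 26.1%, and 47.8% of tested genes changed by less. With the deposited library totals in place of TMM the log2 change was 0.10 and did not pass (edgeR adjusted p = 0.0901). Its FPKM, which rests on those totals, was 29.6, 29.9 and 28.8 in the controls and 30.5, 31.7 and 32.2 with CCL7. All 5 transcripts of Ifnar2 in the annotation are protein-coding, and counts per gene do not separate the transmembrane from the soluble form the gene is known to make. Another annotated gene, Gm21970, lies on the same strand and shares 315 exonic bases with Ifnar2, and has no row in the table. Its span, 91391721 to 91419451, also overlaps the next gene, Il10rb, for which shared exonic bases were not counted.

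For the interferon gamma receptor, the signalling chain rose and the ligand-binding chain did not pass the test. Ifngr2 (ENSMUSG00000022965, chromosome 16, 91547072 to 91565623, plus strand, protein-coding) was at 113, 115 and 110 CPM in the controls and at 210, 218 and 215 CPM with CCL7. All CCL7 libraries lay far above the controls, with little spread within either group, where 73.7% of tested genes had no overlap of the groups. The mean went from 113 ± 2.35 to 214 ± 3.82 CPM, a log2 change of 0.93 ± 0.02 or 1.90-fold (edgeR adjusted p = 3.16e-08, 95% interval 0.82 to 1.03), larger than the change of 81.8% of tested genes. Under all 17 alternatives in scaling, filter, tool and libraries, Ifngr2 stayed between 0.67 and 0.98 and Ifnar1 between 0.63 and 0.94, each past the threshold.

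Ifngr1 (ENSMUSG00000020009, chromosome 10, 19591949 to 19610229, plus strand, protein-coding) is the member whose direction turns with the scaling. Its CPM was 128, 133 and 128 in the controls and 139, 139 and 140 with CCL7, so on this scale the CCL7 libraries lay above the controls. Its FPKM was 48.5, 50.4 and 48.6 in the controls and 44.8, 44.4 and 45.3 with CCL7, so on the deposited scale the CCL7 libraries lay below the controls, again with no overlap. The log2 change was 0.11 ± 0.02 with TMM, which did not pass (edgeR adjusted p = 0.0604, 95% interval 0.00 to 0.21), and -0.13 with the deposited totals, which did (edgeR adjusted p = 0.0232, 95% interval -0.23 to -0.03). The median log2 change of all tested genes was -0.01 with TMM and -0.25 with the deposited totals, and Ifngr1 lay 0.12 above that median on both. These scalings differ only by a factor per library, so that match carries little weight. With quantile normalization, Ifngr1 was at -0.03 relative to the median of all tested genes. With TMM, the call was reached without CCL7 replicate 2 (log2 change 0.11, edgeR adjusted p = 0.0214). It was also reached with another filter on low values, filterByExpr (0.14, edgeR adjusted p = 0.0238), and with no filter (0.16, edgeR adjusted p = 0.0332). The call with TMM thus depends on the filter as well.

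**Figure D1:**
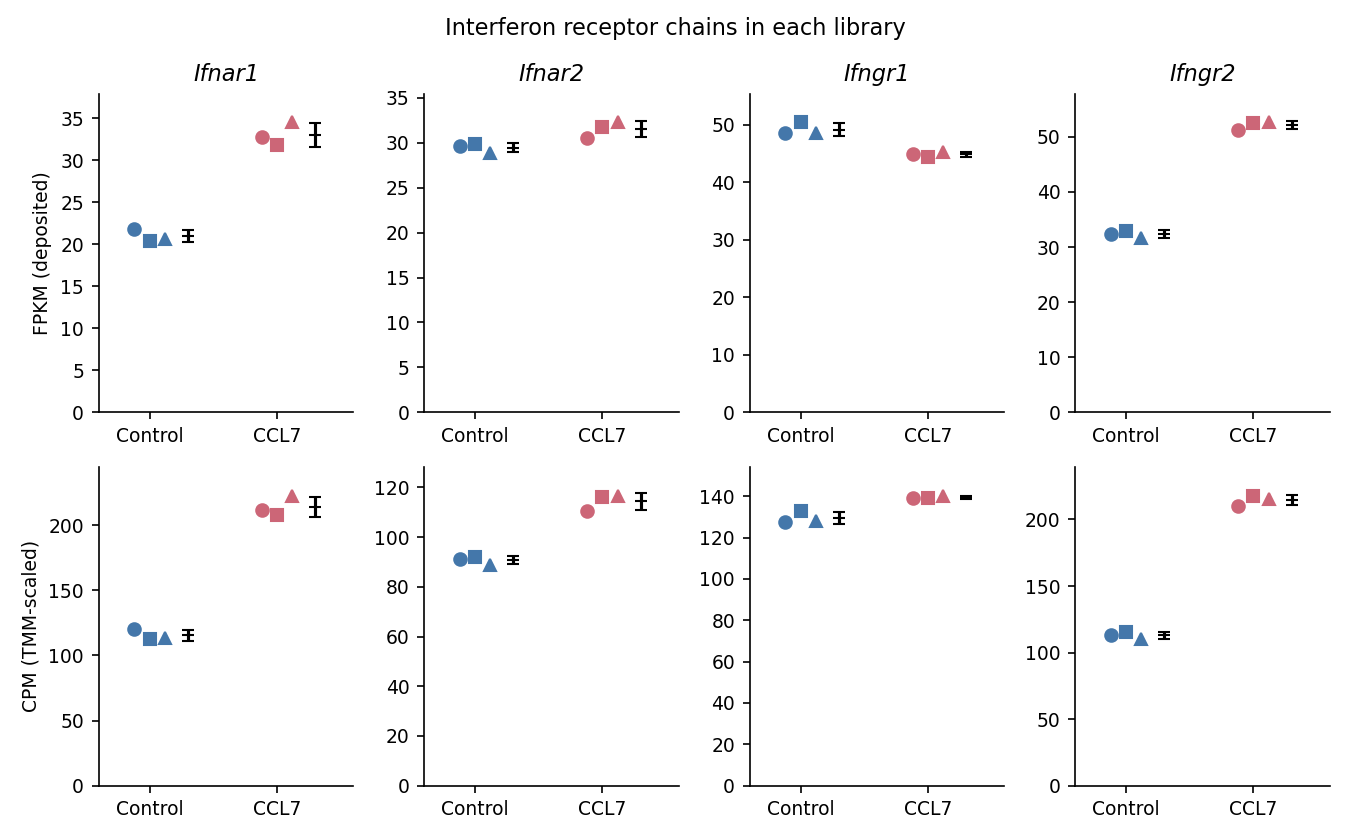
Level of each receptor chain in each library, as deposited FPKM (upper row) and as TMM-scaled CPM (lower row), with circle, square and triangle for replicates 1, 2 and 3 and bars for the mean ± SD of 3 libraries. Ifnar1 and Ifngr2 are higher with CCL7 on both scales, whereas Ifngr1 goes from 49.1 to 44.8 FPKM and from 130 to 139 CPM.

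**Figure D2:**
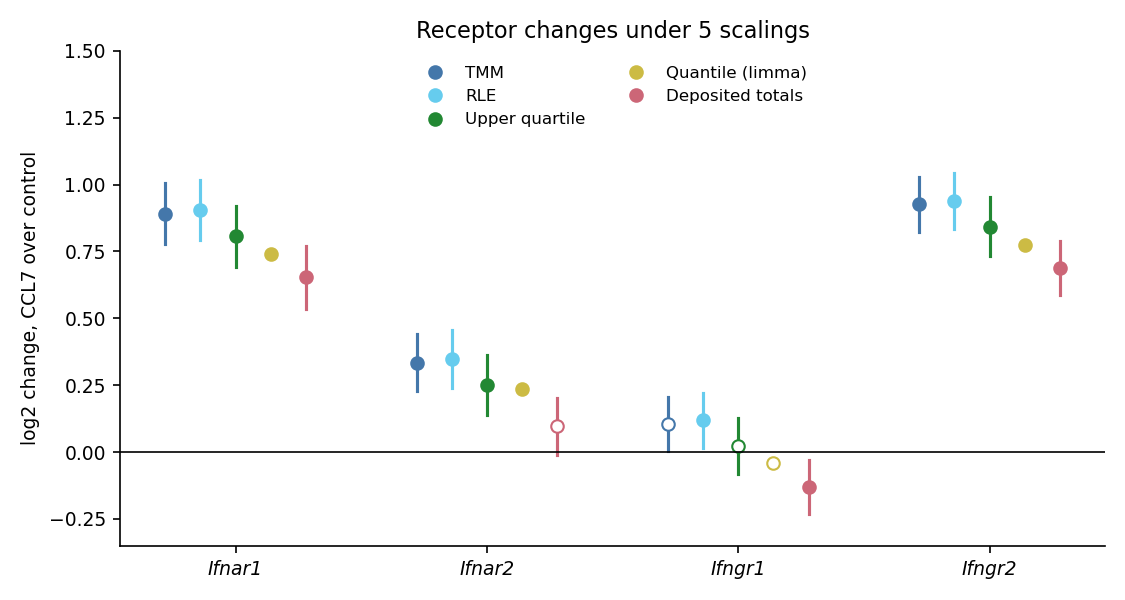
Log2 change of each receptor chain, CCL7 over control, under 5 scalings, with 95% intervals for the edgeR fits and filled points for an adjusted p under 0.05. Ifnar1 and Ifngr2 are higher under all 5, Ifnar2 does not pass with the deposited totals, and Ifngr1 runs from 0.12 to -0.13.

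Between genes, levels were compared per length, as FPKM, so the order depends on the gene length used, the summed exon length over all annotated transcripts. In the controls the order was Ifngr1 (49.1 ± 1.07), Ifngr2 (32.4 ± 0.664), Ifnar2 (29.4 ± 0.530) and Ifnar1 (20.98 ± 0.771), with no overlap between neighbours in the order over the 3 libraries. With CCL7 it was Ifngr2 (52.1 ± 0.752), Ifngr1 (44.8 ± 0.461), Ifnar1 (33.0 ± 1.37) and Ifnar2 (31.5 ± 0.884), and the ranges of the last pair overlapped. Ifnar1 had a higher level than 77.8% of tested genes in the controls and than 86.4% with CCL7, and Ifngr1 than 91.8% and 90.4%.

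The balance of the chains within a receptor was read as the ratio of their FPKM in the same library, in which the library scaling cancels. The gene length does not cancel. It was 5940 bases for Ifnar1, 3329 for Ifnar2, 2847 for Ifngr1 and 3767 for Ifngr2. Which chain has the higher value depends on these lengths, whereas the change in the log2 ratio does not. These are levels of RNA, not of receptor protein. The ratio of Ifnar1 to Ifnar2 was 0.739, 0.684 and 0.716 in the controls and 1.07, 1.002 and 1.07 with CCL7. By FPKM, the type I chains thus went from less Ifnar1 than Ifnar2 RNA to about equal values, with no overlap of the groups. The ratio of Ifngr1 to Ifngr2 was 1.49, 1.53 and 1.53 in the controls and 0.874, 0.845 and 0.862 with CCL7. Here the ligand-binding chain had the higher FPKM in every control and the lower FPKM in every CCL7 library. The change in the log2 ratio was 0.56 for Ifnar1 to Ifnar2 (-0.49 ± 0.06 in controls, 0.07 ± 0.06 with CCL7) and -0.82 for Ifngr1 to Ifngr2 (0.60 ± 0.02 and -0.22 ± 0.02). The exact 2-sided permutation p was 0.1 for each, the smallest that the 20 assignments of 3 against 3 libraries allow, so the design cannot reach 0.05.

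**Figure D3:**
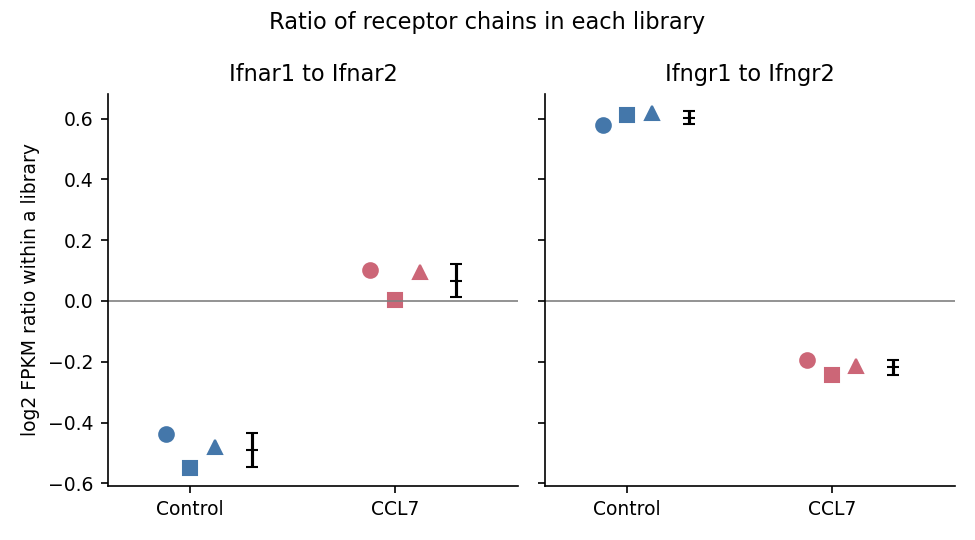
Log2 ratio of FPKM between the chains of each receptor in each library, with replicates 1, 2 and 3 as circle, square and triangle and bars for the mean ± SD of 3 libraries. The line at 0 marks equal FPKM, and the ratio of Ifngr1 to Ifngr2 falls from 0.60 to -0.22.

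Interferon beta itself was at the limit of detection in both groups. Ifnb1 (ENSMUSG00000048806, chromosome 4, 88522025 to 88522774, minus strand, protein-coding) had 0, 0 and 2 counts in the controls and 2, 0 and 0 with CCL7. Every library lay under the floor of 3 counts that a count of 0 allows, so no fold is given and a difference was not detectable at this depth. Over the group, 2 counts of 115007513 in the controls allow up to 0.0628 CPM, and 2 of 138559231 with CCL7 up to 0.0521 CPM (upper bounds of exact 95% Poisson intervals, which cover counting error only). Among low values of the table the count 2 was 2.47 times as frequent as the count 1, so a count of 2 may stand for a single fragment with both ends counted, and in that case the bounds are too low. These values are for 24 h, and no other time was sampled.

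Of the 20 other interferon ligand genes listed, 2 had a row. Ifnk, which encodes interferon kappa, totalled 6 counts over the controls and 2 over the CCL7 libraries, and Ifnz, which encodes interferon zeta, totalled 2 in each. Neither was expressed enough to be tested. The other 18, the interferon alphas, interferon gamma and the interferon lambdas among them, have no row and were not analysed here, and each row of the table holds at least 1 count over the 6 libraries.

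Each gene described here for the Janus kinases and transcription factors that act directly on these receptors passed the test and was higher with CCL7. Across all tested genes 69.1% passed, 33.9% being higher, and some genes described here were added after their values were seen. Jak2, the kinase bound by IFNGR2, rose by 2.17 ± 0.04, from 51.2 to 231 CPM. Jak1, bound by IFNAR2 and IFNGR1, rose by 0.39 ± 0.04. Tyk2, bound by IFNAR1, was higher by 0.25 ± 0.05 but by 0.01 with the deposited totals, where it did not pass. Stat2 (1.70 ± 0.03) and Irf9 (0.58 ± 0.03), which encode partners in the transcription factor complex activated by type I interferon, both rose, as did Stat3 (0.84 ± 0.05).

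Of the other receptors of the class II cytokine family, to which the interferon receptors belong, Il10rb was lower with CCL7. Of 8 listed, 5 had a row and 2 were tested. Il10rb, the shared chain of the receptors for interleukin-10, interleukin-22 and interferon lambda, fell (-0.44 ± 0.08, edgeR adjusted p = 2.34e-04) from 162 ± 5.24 to 119 ± 11.4 CPM. Il10ra, the ligand-binding chain of the interleukin-10 receptor, was at 0.06 ± 0.03 and did not pass with TMM, but it was called lower, at -0.18, with the deposited totals. Ifnlr1, the specific chain of the interferon lambda receptor, totalled 6 counts over the controls and 7 over the CCL7 libraries.

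Sensors and adaptors upstream of Ifnb1 split into higher and lower genes. Of 15 tested, 9 rose, 5 fell and 1 missed the threshold (with the deposited totals 5 higher and 6 lower), and the median was 0.25 against -0.01 for all tested genes. With TMM, 33.9% of all tested genes were higher and 35.2% lower, so falls among these 15 were about as frequent as elsewhere. The largest rises were in the RNA helicase genes, Dhx58 (2.29 ± 0.03), Ddx58, which encodes RIG-I (1.81 ± 0.03), and Ifih1, which encodes MDA5 (1.61 ± 0.03). The falls were Tlr9 (-0.56 ± 0.16), which senses CpG DNA, Sting1 (-0.50 ± 0.07), the adaptor of cytosolic DNA sensing, Tlr4 (-0.38 ± 0.12), the lipopolysaccharide receptor, Traf6 (-0.28 ± 0.07) and Mavs (-0.11 ± 0.02), the adaptor of the RNA helicases. Mavs passed narrowly (edgeR adjusted p = 0.0432) and lost its call without each control replicate, without CCL7 replicate 1 or 3, under RLE scaling, in DESeq2, without a filter, with filterByExpr and with the replicate number as a block. Tlr7 was at 0.05 ± 0.06 and did not pass with TMM, and was at -0.19 with the deposited totals.

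Of 12 kinases and transcription factors of Ifnb1 induction, 7 rose, 1 fell and 4 did not pass, with a median of 0.32, a share of calls near the 69.1% of all tested genes. Irf7, the interferon-induced regulator of the type I genes, rose by 4.68 ± 0.11, the kinase gene Ikbke by 2.28 ± 0.01 and Hmga1, an architectural protein of the Ifnb1 enhancer, by 1.27 ± 0.05. Atf2, another factor of that enhancer, fell (-0.25 ± 0.03). Irf3 (0.04 ± 0.06), Irf5 (0.05 ± 0.05), Irf8 (0.09 ± 0.03) and Jun (-0.01 ± 0.04) did not pass, and with the deposited totals all 4 were called lower, so that 6 rose and 5 fell. Of 6 listed genes that restrain interferon production, 5 were tested, and Trex1 had no row. Of the 5, 3 rose and 0 fell, with a median of 0.72, again a share of calls near the 69.1% of all tested genes. The rises were Tnfaip3 (3.30 ± 0.06), which encodes the ubiquitin-editing enzyme A20, the RNA-editing gene Adar (0.82 ± 0.07) and Samhd1 (0.72 ± 0.02). Prdm1 (-0.13 ± 0.11) and Irf2 (0.04 ± 0.04) did not pass with TMM and were called lower with the deposited totals.

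Among 11 inhibitors of interferon signalling 8 rose, 2 fell and 1 missed the threshold (with the deposited totals 5 higher and 2 lower), and the median was 0.31. With TMM, 33.9% of all tested genes were higher and 35.2% lower, with a median of -0.01. Of the 8, Socs1 and Socs3 had a control mean under 1 FPKM and met the filter only through the CCL7 group. Both had to differ, and their place in the count is no support for the list. Socs3, a feedback inhibitor of cytokine receptors, rose by 6.35 ± 0.20, Isg15, a ubiquitin-like modifier that stabilizes USP18 in human cells, by 4.03 ± 0.15, and Usp18, which displaces JAK1 from IFNAR2, by 2.89 ± 0.07. Pias3 (-0.68 ± 0.06) and Pias1 (-0.61 ± 0.03), members of the family of inhibitors of activated STATs, fell, and Pias4 (0.15 ± 0.08) did not pass. Of 8 genes for turnover and sorting of the receptors 3 rose, 2 fell and 3 did not pass, with a median of 0.06, again a share of calls near the 69.1% of all tested genes, whereas with the deposited totals 0 rose and 4 fell, with a median of -0.18. Prkd2, a kinase that promotes IFNAR1 internalization, fell (-0.80 ± 0.12), and so did Eif2ak3 (-0.41 ± 0.06). Vps29 (0.28 ± 0.05), Csnk1a1 (0.27 ± 0.02) and Fbxw11 (0.24 ± 0.03) were called higher, and none of these 3 passed with the deposited totals. Btrc (0.11 ± 0.07), a subunit of a ubiquitin ligase that acts on IFNAR1, and the retromer genes Vps35 (0.02 ± 0.04) and Vps26a (-0.10 ± 0.05) did not pass with TMM.

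Response genes of both interferon types were higher in the same libraries in which Ifnb1 was at most 2 counts. Of all tested genes 33.9% were higher and 35.2% lower, with a median of -0.01. Of 20 type I response genes 20 rose, with a median of 2.13, led by Zbp1 (4.85 ± 0.06), Ifi44 (4.35 ± 0.12) and Oasl1 (3.66 ± 0.14). Of 12 genes of the interferon-gamma response 10 were tested, of which 9 rose and 1, the class II transactivator gene Ciita (-0.63 ± 0.11), fell, with a median of 1.61. Nos2, which encodes inducible nitric oxide synthase, had 24 counts over the controls and 17157 over the CCL7 libraries, a fitted log2 change of 9.42 ± 0.25. The guanylate-binding protein genes Gbp2 and Gbp5 rose by 3.70 ± 0.13 and 3.09 ± 0.13. Nos2, Gbp5 and Ifi44, and Socs1 and Socs3 among the inhibitors, had a control mean under 1 FPKM and met the filter only through the CCL7 group, so they had to differ, and their place in the counts above is no support for the lists. Many of these genes are also known to respond to NF-kB or to other cytokines.

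**Figure D4:**
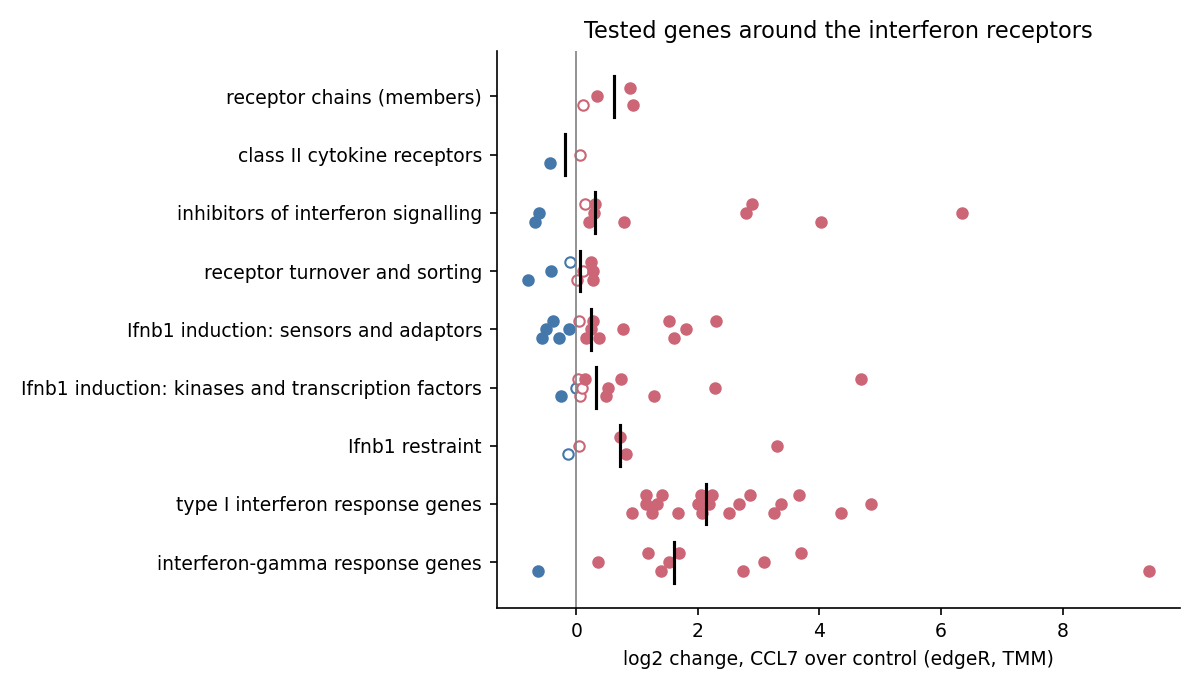
Log2 change, CCL7 over control, of the receptor chains and of the tested genes of 8 lists, by list, with filled points for an edgeR adjusted p under 0.05, open points for other genes, red for higher, blue for lower and black bars for the list median. The type I response genes all lie above 0, while the sensors and adaptors fall on both sides. Nos2, Gbp5, Ifi44, Socs1 and Socs3 met the filter only through the CCL7 group, so they had to differ.

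Ifnar2, Il10rb, Ifnar1 and Ifngr2 lie in that order on the plus strand within 192841 bases of chromosome 16. Il10rb begins 574 bases after the end of Ifnar2 and is the member of this row of 4 receptor genes that fell, with an interval of -0.59 to -0.28 that overlaps none of its neighbours. The annotated gene Gm21970, which has no row, overlaps both Ifnar2 and Il10rb by position, and its part in their counts was not tested. Next to Ifngr2, 8879 bases away on the minus strand, Tmem50b rose by 0.60 ± 0.05 (edgeR adjusted p = 2.92e-06). Other rows next to these genes were too low to test: Gm49626 (1 count in the controls and 0 with CCL7), A930006K02Rik (137 and 99), Gm7856 (10 and 0), Gm7860 (20 and 2), Gm15966 (3 and 3), Olig1 (10 and 2), Gm49625 (0 and 2) and Gm15964 (86 and 202). Beside Ifnb1 on chromosome 4, Hacd4 fell (-1.22 ± 0.11), Klhl9 fell (-0.30 ± 0.05), Mrpl48-ps was at -0.58 ± 0.24 (edgeR adjusted p = 0.0716) and Focad was not tested. Beside Ifngr1 on chromosome 10, Pex7 fell (-0.38 ± 0.03), and Slc35d3, Gm33104 and Gm33056 had at most 4 counts in a group.

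**Figure D5:**
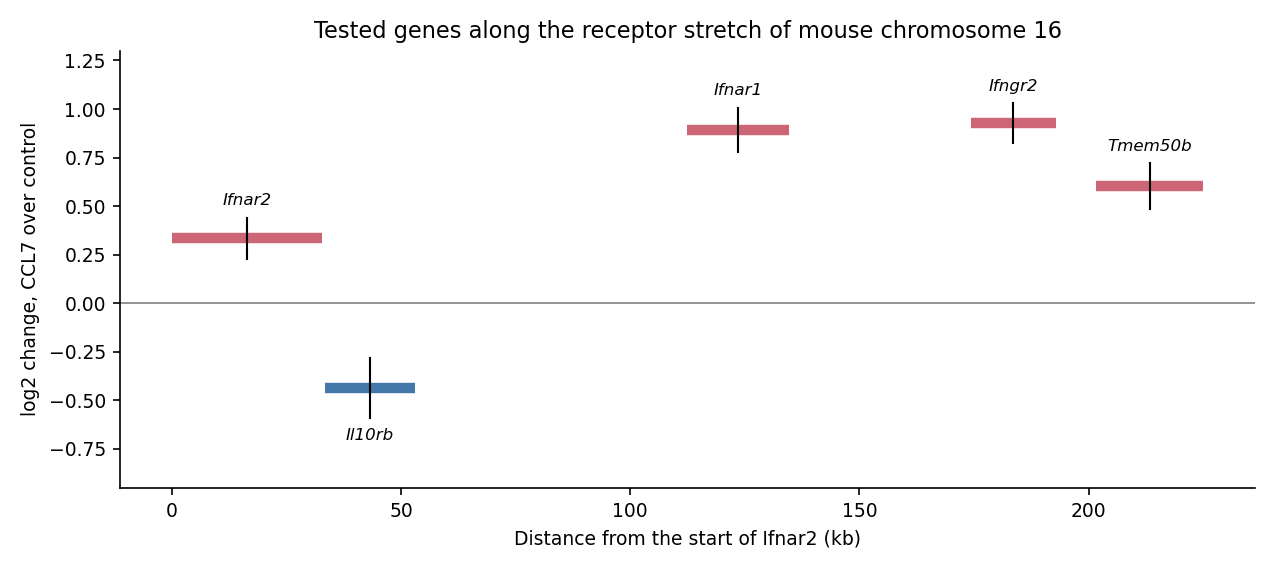
Log2 change, CCL7 over control, of the tested genes from Ifnar2 to Tmem50b against distance from the start of Ifnar2 in kb, where each bar spans a gene (red for higher, blue for lower) and vertical lines are 95% intervals. Il10rb, at -0.44, lies between Ifnar2 and Ifnar1, which are higher.

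Genes with the most similar profile to a member were found by the smallest Euclidean distance of log2 CPM, centred on the mean of each gene, over the 6 libraries. For Ifnar1 they were Ywhag (distance 0.0725), C920009B18Rik (0.0729) and Marveld1 (0.0732), with log2 changes of 0.89, 0.88 and 0.90. For Ifngr2 they were B430306N03Rik (0.0542), Def8 (0.0635) and Por (0.0645), with changes of 0.91, 0.88 and 0.88. Nearest to Ifnar2 were Pla2g12a (0.0320), Kat2a (0.0404) and Tsc22d4 (0.0423), at 0.31, 0.32 and 0.35, and nearest to Ifngr1 were Ppp1r37 (0.0215), Zbtb43 (0.0243) and Exosc10 (0.0294), at 0.11, 0.11 and 0.12. No chain of a receptor was among the 3 nearest of another chain. With 2 groups of libraries the distance mostly reads the size of the change.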

How the data were processed

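Whole-number counts per gene and FPKM values were deposited by the authors for 6 libraries, the units being those of the column names. The deposited FPKM divides a count by gene length and library total: the length it implies was the GENCODE M21 exon length for 24793 of 25247 rows found there (98.2%, within 0.5 base). Per the submitters' processing notes, Bowtie 0.12.2 was used in a role not stated, and mm8 and mm9 are both listed as builds. Counting program and strand setting: not given in the sources used here, so coordinates are only those of GENCODE M21 and RefSeq, matched by identifier or symbol. No column of other samples was in the table, and 175 rows had no symbol.

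Tests used counts for 11143 genes (mean FPKM over the 6 libraries of 1 or more), in edgeR 4.0.16 (glmQLFit and glmQLFTest, TMM, group as the only term, 2-sided), with Benjamini-Hochberg adjustment over those genes and a threshold of 0.05. Ifnb1 was below that mean. Standard errors come from the SDs of log2 CPM in 3 libraries per group, and 95% intervals from the quasi-likelihood fit. The common BCV, edgeR's estimate of spread beyond counting, was 6.81%. Alternatives used limma 3.58.1 and DESeq2 1.42.0. List medians and counts are given with no set test, and for the kinases and transcription factors at the receptor they are left out, since 1 item is not reported here. Members and lists were chosen with earlier results of these data known. Named genes are the members, the 3 called genes with the largest change per list, genes behind counts of 5 or fewer, the nearest rows on either side and the 3 most similar profiles. Some named list genes outside that rule, such as Jak1 or Fbxw11, were added after their values were seen, as were the alternatives run on genes other than the members.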

Additional observations from a re-analysis of the deposited data

How the results depend on the processing

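The count of changed genes was 6959 to 8044 without each library in turn, and the share of them that were higher was 49.1% with TMM and 27.9% with the deposited totals (2306 higher, 5949 lower), since that scaling moves the median of all genes. Ifnar1 and Ifngr2 kept direction and call under the 17 alternatives. Without each library in turn, Ifnar1 lay at 0.87 to 0.92, Ifnar2 at 0.32 to 0.37, Ifngr1 at 0.10 to 0.12 and Ifngr2 at 0.91 to 0.95, and the chain ratios at 0.53 to 0.59 and -0.83 to -0.81. Ifnar2 missed the threshold at 0.10 with the deposited totals, at 0.094 on log2(FPKM + 1) and at 0.10 on log2(FPKM + 0.1). Ifngr1 passed at 0.12 with RLE, 0.12 with DESeq2, 0.16 without a filter, 0.14 with filterByExpr and 0.11 without CCL7 replicate 2. It was negative at -0.13 with the deposited totals, -0.13 on log2(FPKM + 1), -0.13 on log2(FPKM + 0.1) and -0.041 with quantile normalization. No log2 change is reported for Ifnb1 under any setting, because every library lay under the floor of 3 counts.

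The number of changed genes was 2 for the class II receptors with the deposited totals, with quantile normalization and without a filter, 8 for turnover and sorting with quantile normalization, and 5 for restraint with the deposited totals. With the deposited totals, these named genes turned negative: Il10ra (-0.18), Pias4 (-0.092), Btrc (-0.13), Vps35 (-0.22), Tlr7 (-0.19), Irf3 (-0.20), Irf5 (-0.18), Irf8 (-0.15), Irf2 (-0.20), Ppp1r37 (-0.13), Zbtb43 (-0.13) and Exosc10 (-0.12). The log2(FPKM + 1) values of the same 12 were -0.18, -0.085, -0.071, -0.21, -0.19, -0.18, -0.18, -0.14, -0.17, -0.12, -0.11 and -0.11, and those on log2(FPKM + 0.1) were -0.18, -0.093, -0.12, -0.22, -0.19, -0.20, -0.18, -0.15, -0.20, -0.13, -0.13 and -0.12. Upper quartile scaling gave Il10ra -0.026, Vps35 -0.066, Tlr7 -0.039, Irf3 -0.047, Irf5 -0.029 and Irf2 -0.047. Quantile normalization gave Il10ra -0.12, Vps35 -0.20, Tlr7 -0.27, Irf5 -0.11, Irf8 -0.086 and Prdm1 0.019. Jun turned positive with RLE (0.0043), DESeq2 (0.0042), no filter (0.043) and filterByExpr (0.024). Without each library in turn Jun lay at -0.027 to 0.023 and Irf3 at -0.0035 to 0.078. The cause of these changes was not tested.

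Libraries with the same replicate number did not deviate together (r of -0.08, -0.03 and -0.01 for numbers 1 to 3). Pairs with different numbers had r of -0.04 to 0.08. No label names the culture or animal, so whether libraries with the same number share one was not tested. With replicate number as a block 7432 genes changed and the members' log2 changes were 0.89, 0.33, 0.11 and 0.93 for Ifnar1, Ifnar2, Ifngr1 and Ifngr2, with the same calls. Depth limits Ifnb1, which had fewer than 3 counts in every library.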
